A study of Homo sapiens with 4 samples.

Results

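TXNIP, the thioredoxin-interacting protein gene, was followed with 9 other genes of redox control across 4 passage groups of H9, a human embryonic stem cell line in wide use. The 10 genes were taken by name, as those annotated to TXNIP, its arrestin-domain relatives ARRDC3 and ARRDC4, the thioredoxin genes TXN and TXNRD1, and the antioxidant genes NQO1, HMOX1, GCLM, SRXN1 and PRDX1. They were 10 of the 19951 genes named on the arrays and held 17 of the 47323 probes. The choice was made with results for TXNIP in view, so its values and those of its companions are given as a description of the arrays and no test is attached to them. Each group was profiled on 1 Illumina bead array hybridised with biotin-labelled cRNA. Cells of P1 were at passages in the 40s. Those of P2 had reached the 100s, those of P3 the 200s and those of P4 the 300s. All are the same line, the labels name no treatment, and the later groups are compared with the earlier ones to follow expression through long culture. With 1 array per group there was no replicate spread, no standard deviation and no p-value, and every difference below compares 2 arrays.

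Thioredoxin is a small protein with a reactive pair of cysteines that reduces disulphides in other proteins, and thioredoxin reductase returns it to its working form with electrons from NADPH. TXNIP binds reduced thioredoxin and blocks it, and as an alpha-arrestin it also draws glucose transporters from the cell surface. Its gene is driven by glucose through the transcription factors MondoA (MLXIP) and ChREBP (MLXIPL), which bind paired E-box-like sites called carbohydrate response elements. The antioxidant genes are governed by another factor, NRF2 (NFE2L2), which KEAP1 marks for degradation until oxidants or electrophiles release it, and which binds antioxidant response elements.

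The sequence before the start site is shown for TXNIP and ARRDC4, the arrestin genes among the members with signal over the detection limit, and for GCLM, which on its brighter probe had the widest span of the NRF2 targets among the members. The sequences are from RefSeq on GRCh38.p14 and each runs 5′ to 3′ on the strand of the gene over the 250 bases before the start site. They lie at chr1:145996580-145996829 on the minus strand for TXNIP, chr15:97960453-97960702 on the plus strand for ARRDC4 and chr1:93909431-93909680 on the minus strand for GCLM. Capitals mark matches, on either strand, to CACGNG (a single E-box-like site), CCAAT (the box bound by NF-Y) TGACNNNGC (the core of an antioxidant response element) and the paired motif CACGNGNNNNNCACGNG, whose 5 spacer bases are therefore in capitals too.
TXNIP: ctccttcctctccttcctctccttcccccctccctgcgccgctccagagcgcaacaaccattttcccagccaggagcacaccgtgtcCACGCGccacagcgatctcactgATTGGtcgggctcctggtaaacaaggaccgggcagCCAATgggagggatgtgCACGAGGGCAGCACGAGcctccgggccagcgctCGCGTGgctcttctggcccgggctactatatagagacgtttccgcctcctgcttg
ARRDC4: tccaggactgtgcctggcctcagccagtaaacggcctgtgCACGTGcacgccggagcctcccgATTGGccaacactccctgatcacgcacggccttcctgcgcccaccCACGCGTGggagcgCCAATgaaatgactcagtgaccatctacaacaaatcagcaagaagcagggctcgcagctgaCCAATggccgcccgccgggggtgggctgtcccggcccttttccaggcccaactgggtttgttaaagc
GCLM: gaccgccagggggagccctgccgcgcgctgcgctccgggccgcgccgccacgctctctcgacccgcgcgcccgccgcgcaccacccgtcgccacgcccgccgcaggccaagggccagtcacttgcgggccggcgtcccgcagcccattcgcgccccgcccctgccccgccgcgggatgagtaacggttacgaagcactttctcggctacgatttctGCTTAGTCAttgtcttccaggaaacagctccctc

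The TXNIP promoter held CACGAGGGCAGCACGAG at bases 163 to 179 of its window. This is a direct pair of such sites set 5 bases apart, the layout of a carbohydrate response element, and it contains both of the single matches it overlaps. The paired motif, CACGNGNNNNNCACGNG on either strand, was present in 20 of 34943 promoter windows of 300 bases in the same RefSeq set, or 0.0572%. No other window of the members held the pair in this form, and looser forms of the element were not searched. The motif was added after the members were chosen, so nothing is read from its rarity. The ARRDC4 window had the palindrome CACGTG at bases 41 to 46, which counts once on each strand, and an overlapping pair of matches at bases 109 to 116. The single site was present in 30.5% of all windows and CCAAT in 34.6%, so these marks are common. The antioxidant core was present in 13.3% of windows and, among members, in GCLM (GCTTAGTCA, read on the other strand, at bases 217 to 225) and in both TXNRD1 windows. Promoters were matched for 8 of the 10 members, in 11 windows. A match describes letters only and does not show binding in these cells.

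TXNIP was the member that differed widely between passage groups. Its probe read 209 intensity units (P1), 105 (P2), 1134 (P3) and 591 (P4), so P2 was the lowest array and P3 the highest. Within each array this placed the probe at the 76.4 percentile of all probes (P1), 70.2 (P2), 90.5 (P3) and 85.5 (P4). All 4 values were above the detection limit of 38.4, the 60th percentile of all probe values, and the folds below are therefore measured and not bounds. Only 1 probe on the array was annotated to TXNIP, so no other probe checks its course. In bulk RNA, fewer cells carrying a transcript and less of it per cell cannot be told apart.

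The step between P2 and P3 was the widest for TXNIP. It was 10.8-fold higher in P3 than in P2, a log2 difference of 3.43, and 3 of the 11776 genes detected in that pair had a higher difference. TXNIP was 5.44-fold higher in P3 than in P1, where 6 of 11846 genes lay above it, and 2.83-fold higher in P4 than in P1, where 59 of 11823 lay above it. In P4 against P2 it was 5.61-fold higher. Both remaining comparisons fell just short of 2-fold: TXNIP was 1.98-fold lower in P2 than in P1 and 1.92-fold lower in P4 than in P3. In P2 against P1, 540 of 11804 genes had a larger difference in either direction, and in P4 against P3, 281 of 11781 had. Over these 4 arrays its readings thus dipped, peaked and partly returned, with no steady rise or fall from P1 to P4. The 6 comparisons share arrays, so a level peculiar to 1 array enters 3 of them.

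**Figure D1:**
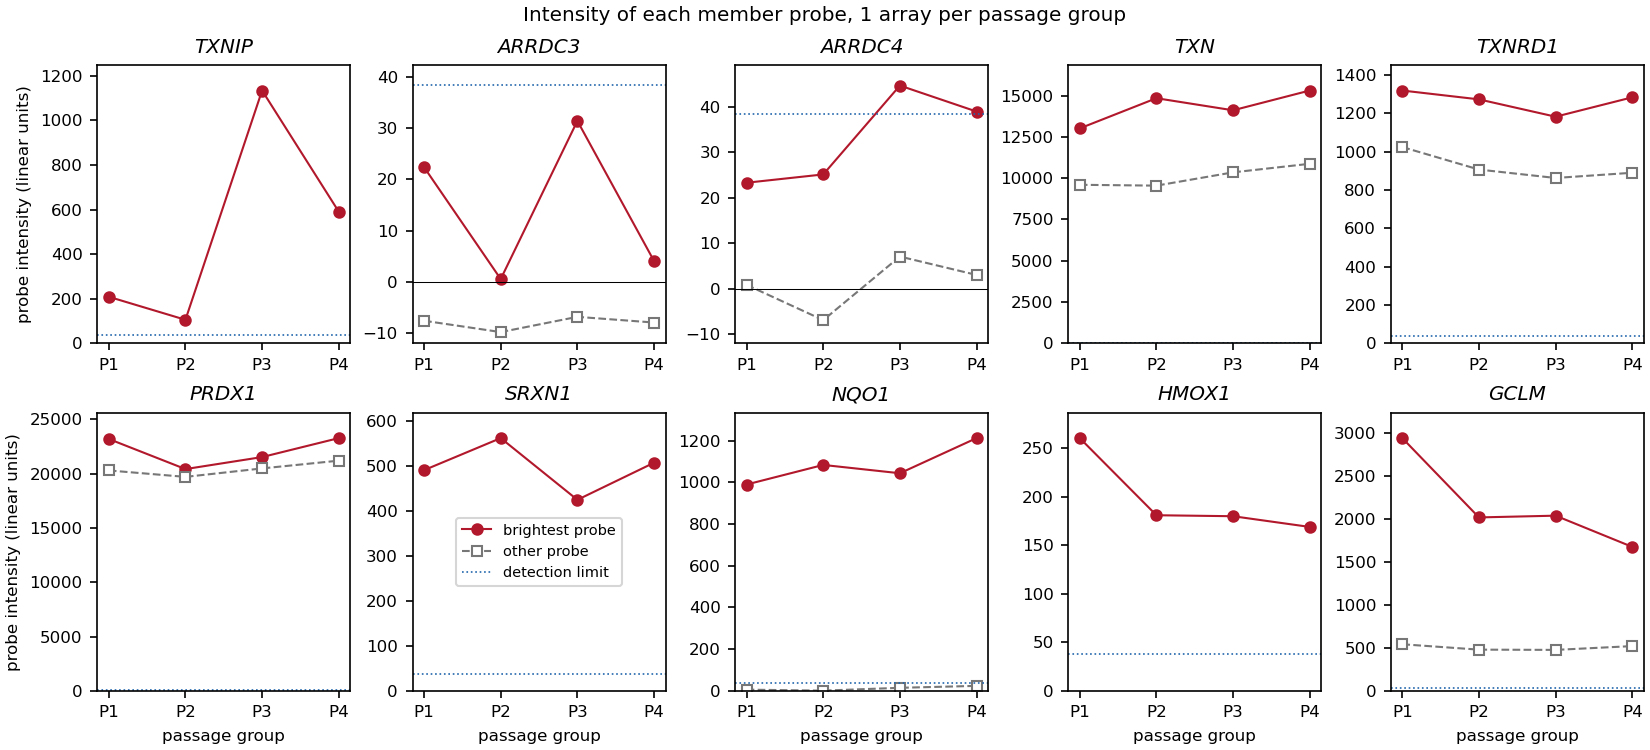
Probe intensity (linear units, vertical axis) of each member in P1 to P4, 1 array each; red points are the brightest probe of the gene, grey squares its other probe, and the dotted line the detection limit of 38.4. TXNIP peaks in P3 at 1134, whereas TXN, TXNRD1 and PRDX1 stay nearly level and HMOX1 and GCLM are highest in P1.

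Of the members detected in each comparison, with ARRDC4 counted at its bound, TXNIP alone was at least 2-fold higher, in 4 of the 6, and none was at least 2-fold lower in any. The count was 1 of 9 in P3 against P1, beside 1.95% of all detected genes at least 2-fold higher in P3. It was 1 of 9 in P4 against P1, beside 1.82%, in P3 against P2, beside 2.09%, and in P4 against P2, beside 2.34%. The count was 0 of 8 in P2 against P1, beside 2.18% of all genes higher and 2.19% lower in P2, and 0 of 9 in P4 against P3, beside 1.34% higher and 0.764% lower in P4. Since TXNIP was known to differ when the members were chosen, nothing is read from these shares. For the lower direction the backgrounds of the other comparisons were 1.6% in P3 against P1, 1.23% in P4 against P1, 1.05% in P3 against P2 and 0.791% in P4 against P2.

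**Figure D2:**
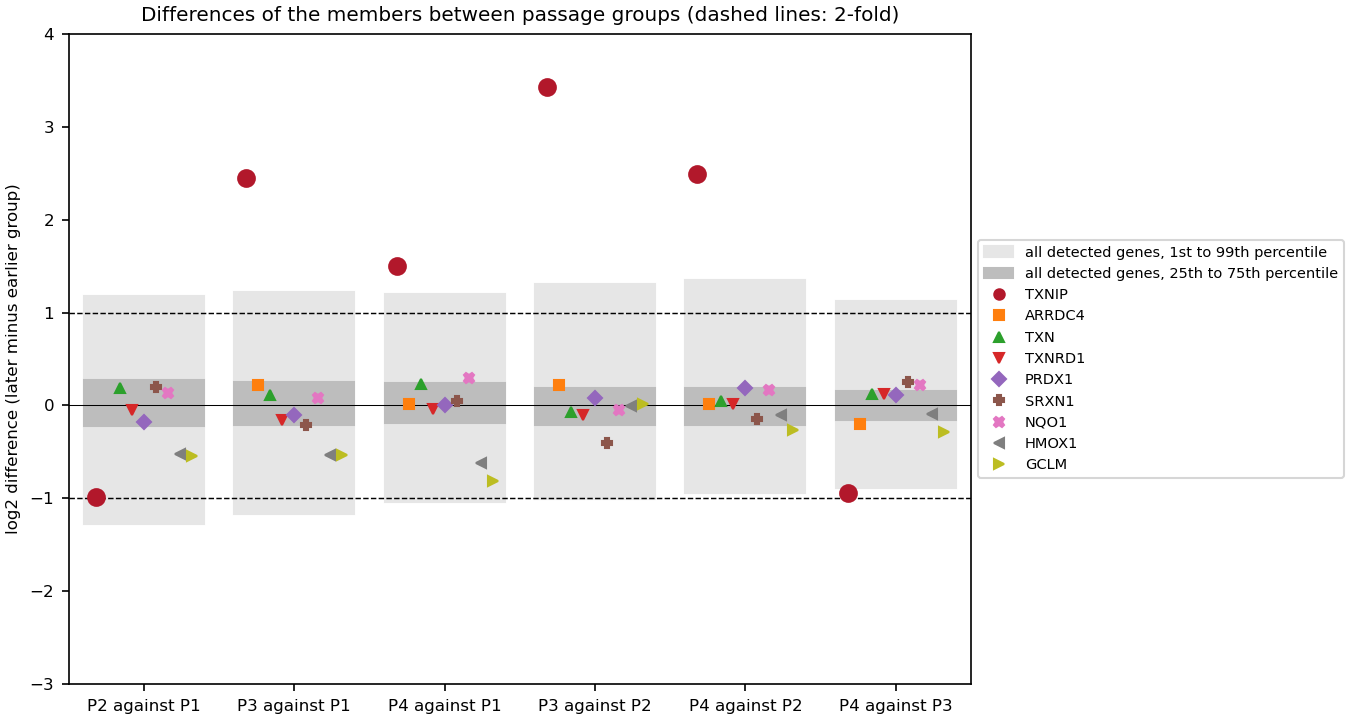
Log2 difference, later minus earlier group (vertical axis), of the 9 detected members in each of the 6 comparisons, over grey boxes that span the 1st to 99th and 25th to 75th percentiles of all detected genes. TXNIP lies above the wider box wherever P3 or P4 is set against P1 or P2, up to 3.43, and the other members, with ARRDC4 at its bound, stay between the 2-fold lines.

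The arrestin relatives, which share the arrestin fold with TXNIP and act in the trafficking of surface receptors and glucose transporters, were at or under the detection limit. The brighter ARRDC4 probe read 23.3 (P1), 25.1 (P2), 44.7 (P3) and 39.0 (P4), so it passed the limit in P3 and P4 only. As a bound, ARRDC4 was at least 1.16-fold higher in P3 than in P1 or P2 and at least 1.01-fold higher in P4. Its other probe stayed between -6.91 and 7.07. The brighter ARRDC3 probe read 22.4 (P1), 0.528 (P2), 31.4 (P3) and 4.06 (P4) and was under the limit on every array, as was the dimmer one. These values have no usable order, and 1 of the 10 members is thus without a measured difference. ARRDC2, which was outside the member list, read 209 (P1), 215 (P2), 217 (P3) and 227 (P4) and spanned 1.09-fold over the arrays. ARRDC1 and ARRDC5 were under the limit. TXNIP was the 1 of 3 detected alpha-arrestins, of 6 in all, to span 2-fold, with ARRDC4 at its bound, beside 9.77% of all detected genes. Since TXNIP was known to differ when the genes were chosen, nothing is read from this count. Here and in the lists below, a gene under the limit on some arrays is counted at its bound, and its span may be wider.

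The thioredoxin genes that TXNIP acts on were nearly level. The brighter TXN probe read 13016 (P1), 14844 (P2), 14112 (P3) and 15310 (P4), a span of 1.18-fold, and the dimmer one read 9599 (P1), 9548 (P2), 10353 (P3) and 10871 (P4). Both probes were highest in P4. TXNRD1, the cytosolic reductase and a selenoprotein, read 1318 (P1), 1272 (P2), 1182 (P3) and 1283 (P4) on its brighter probe, and 1024 (P1), 906 (P2), 862 (P3) and 889 (P4) on the other. Both TXNRD1 probes were lowest in P3, the array with the highest TXNIP, but by only 1.12-fold and 1.19-fold against P1. TXN and TXNRD1 spans were smaller than the median span of all 12168 detected genes, which was 1.34-fold.

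Other genes of the thioredoxin list differed more, and some less. TXNRD2, the mitochondrial thioredoxin reductase, read 252 (P1), 160 (P2), 47.1 (P3) and 154 (P4), and was 5.35-fold lower in P3 than in P1 and 3.26-fold higher in P4 than in P3. The P3 value is close to the detection limit, and its other probe was under the limit on all arrays. TXN2, the mitochondrial thioredoxin, read 165 (P1), 81.9 (P2), 100 (P3) and 94.3 (P4), and was 2.02-fold lower in P2 than in P1. TXNL1, a thioredoxin-like protein bound to the proteasome, was lowest in P2 at 485, against 1048 in P1, a 2.16-fold difference. NXN, nucleoredoxin, spanned 1.35-fold, and the thioredoxin-domain genes TXNDC5, TXNDC12 and TXNDC17 spanned 1.27-fold, 1.14-fold and 1.08-fold. With TXNIP, 4 of the 10 detected genes of the thioredoxin list spanned at least 2-fold, beside 9.77% of all detected genes. TXNIP was known to differ when the list was chosen, and TXN2 passed only narrowly, at 2.02-fold. Nothing is therefore read from this count.

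PRDX1, a peroxiredoxin that breaks down hydrogen peroxide and is recycled by thioredoxin, read 23199 (P1), 20425 (P2), 21532 (P3) and 23278 (P4). Its second probe read 20300 (P1), 19708 (P2), 20487 (P3) and 21201 (P4). Both probes were lowest in P2 and spanned at most 1.14-fold, but they sit above the 99th percentile of each array, and whether signal compression at that height narrowed the span was not tested. SRXN1, sulfiredoxin, which repairs overoxidised peroxiredoxins, read 491 (P1), 562 (P2), 425 (P3) and 508 (P4). It was 1.32-fold lower in P3 than in P2, the reverse of TXNIP in that pair.

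Among the other genes of the peroxiredoxin list, only the sestrin SESN1, a stress-induced regulator of growth signalling and a known p53 target, spanned 2-fold, 1 of 8 detected genes, beside 9.77% of all detected genes. SESN1 read 516 (P1), 354 (P2), 213 (P3) and 731 (P4) and was thus lowest where TXNIP was highest. It was 2.42-fold lower in P3 than in P1 and 3.43-fold higher in P4 than in P3. SESN2 and SESN3 spanned 1.54-fold and 1.26-fold, and the secretory-pathway peroxiredoxin PRDX4 spanned 1.15-fold.

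Of the NRF2 targets among the members, HMOX1 and GCLM were highest in P1 and lower in all 3 later groups. HMOX1, the heme oxygenase that degrades heme to biliverdin, read 261 (P1), 181 (P2), 180 (P3) and 169 (P4), and lay 1.54-fold below its P1 level in P4. The brighter probe of GCLM, the modifier subunit of the enzyme that limits glutathione synthesis, read 2938 (P1), 2016 (P2), 2036 (P3) and 1674 (P4), and lay 1.76-fold below its P1 level in P4. The dimmer GCLM probe read 542 (P1), 479 (P2), 476 (P3) and 520 (P4) and gave only 1.04-fold lower in P4, so the size of the GCLM difference rests on 1 of its 2 probes. NQO1, a quinone reductase widely used as a readout of NRF2, went the other way and read 990 (P1), 1084 (P2), 1044 (P3) and 1213 (P4). It was 1.22-fold higher in P4 than in P1, on its brighter probe alone. The differences of HMOX1 and GCLM share the P1 array, and a level peculiar to it would enter each of them. The NRF2 targets among the members had no common direction. Over all detected members, TXNIP and ARRDC4 included, the median log2 difference was -0.12 in P2 against P1, beside 0.03 over all detected genes, -0.11 in P3 against P1, beside 0.02, and 0.02 in P4 against P1, beside 0.03.

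Without TXNIP, the 8 other detected members had a median span of 1.20-fold over the 4 arrays, beside 1.34-fold over all detected genes, and GCLM had the widest, at 1.76-fold. TXNIP spanned 10.8-fold, and 24 of the 12168 detected genes had a wider span.

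The wider NRF2 target list had 22 detected genes of 28 with a probe, and 2 of them spanned at least 2-fold, beside 9.77% of all detected genes. CBR3, a carbonyl reductase, read 60.7 (P1), 69.3 (P2), 211 (P3) and 166 (P4), a course low in P1 and P2 and high in P3 and P4 like that of TXNIP. It was 3.47-fold higher in P3 than in P1 and 3.04-fold higher in P3 than in P2. AKR1C3, an aldo-keto reductase, read 239 (P1), 447 (P2), 517 (P3) and 435 (P4) and was already higher in P2. CBR1 was highest in P4 at 273, against 161 in P1, and BLVRB, a biliverdin and flavin reductase, was lowest in P2 at 90.6. In P3 against P1, 2 of 22 genes of the list were at least 2-fold higher and none lower, beside 1.95% higher and 1.6% lower of all detected genes, with a median of 0.04 beside 0.02. In P4 against P1 it was 1 of 21 higher, beside 1.82%, with a median of 0.06 beside 0.03. The medians were larger against P2, at 0.12 beside -0.02 in P3 and 0.13 beside -0.02 in P4. At least 2-fold higher there were 1 of 22 genes in P3, beside 2.09%, and 1 of 21 in P4, beside 2.34%. Both comparisons share the P2 array.

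NRF2 itself, NFE2L2, read 658 (P1), 460 (P2), 451 (P3) and 543 (P4), and, as for HMOX1 and GCLM, it was highest in P1. The brightest probe of MAFF, a small Maf protein that pairs with NRF2, read 1354 (P1), 987 (P2), 834 (P3) and 712 (P4), and lay 1.90-fold below its P1 level in P4. A dimmer MAFF probe read 68.6 (P1), 63.2 (P2), 48.2 (P3) and 50.8 (P4). It was only 1.35-fold lower in P4 than in P1, so the size of the MAFF difference rests on 1 probe. KEAP1 read 636 (P1), 685 (P2), 635 (P3) and 684 (P4). None of the 9 detected genes of the regulator list spanned 2-fold, beside 9.77% of all detected genes, a share that leaves little to be read from so few. BACH2 and PALB2 spanned 1.40-fold and 1.34-fold. The probes of BACH1, a repressor of HMOX1, and CUL3 were under the limit, which shows only that these probes gave no measurable signal.

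Among the regulators of TXNIP, MLXIPL, which encodes ChREBP, was higher in the later groups. Its brighter probe read 67.7 (P1), 135 (P2), 189 (P3) and 176 (P4), and its dimmer one read 46.9 (P1), 57.3 (P2), 104 (P3) and 87.6 (P4). Both probes had the order P1, P2, P4, P3 from low to high, and P3 was above P1 by 2.80-fold on the brighter probe and 2.21-fold on the dimmer. P2 was the lowest array for TXNIP but not for MLXIPL. The MLXIP probe, for MondoA, read between 13.6 and 27.1 and was under the limit on every array. This shows only that the probe gave no measurable signal.

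NFYA, a subunit of the CCAAT-binding factor, had its lowest value where TXNIP did. It read 264 (P1), 108 (P2), 188 (P3) and 226 (P4), and was 2.43-fold lower in P2 than in P1. The histone methyltransferase EZH2 had its highest value there, at 180 (P1), 394 (P2), 282 (P3) and 247 (P4), and all 3 of its probes were highest in P2. MXI1, a MAX-binding repressor, was lowest in P2 at 47.8, against 95.4 in P1. SLC2A1, the glucose transporter GLUT1 whose removal from the surface TXNIP promotes, read 5673 (P1), 3595 (P2), 5067 (P3) and 6738 (P4). In this list 3 of 21 detected genes spanned at least 2-fold, beside 9.77% of all detected genes, and whether any of them bears on the level of TXNIP was not tested.

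**Figure D3:**
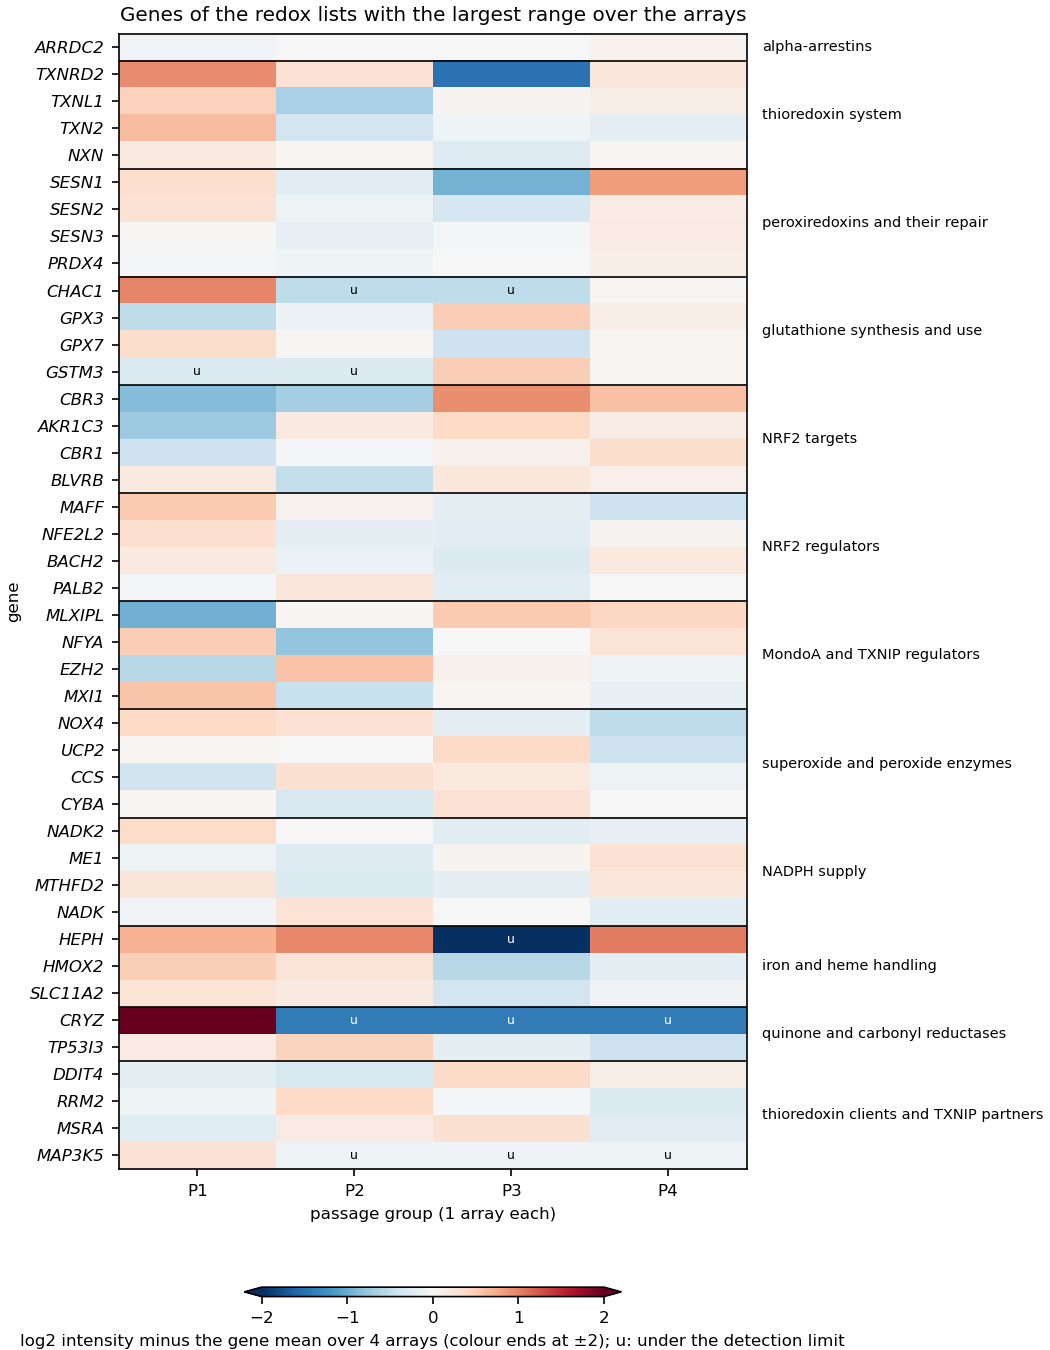
Log2 intensity minus the mean of the gene over the 4 arrays (colour, red above and blue below the mean) for up to 4 genes of each redox list, chosen by the widest range; columns are P1 to P4 and u marks a value under the detection limit. TXNRD2 and SESN1 are lowest in P3, CBR3 is high in P3 and P4, and CRYZ is over the limit in P1 alone.

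In the glutathione list 1 of 28 detected genes spanned 2-fold, beside 9.77% of all detected genes. This was CHAC1, which degrades glutathione and belongs to the amino acid stress response, over the limit in P1 (108) and P4 (55.4) and at least 2.80-fold lower in P2 and P3 than in P1. GPX3, the secreted glutathione peroxidase, read 407 (P1), 533 (P2), 807 (P3) and 632 (P4) and so peaked in P3, at 1.99-fold above P1. GPX7, an endoplasmic reticulum peroxidase, was lowest in P3 at 427, against 725 in P1. GSTM3 read 65.0 in P3 and 47.7 in P4 and was under the limit in P1 and P2. GCLC, the catalytic partner of GCLM, read 501 (P1), 371 (P2), 422 (P3) and 400 (P4) and was highest in P1 as GCLM was.

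In the quinone reductase list 2 of 8 detected genes spanned at least 2-fold and in the iron-handling list 2 of 11, beside 9.77% of all detected genes. CRYZ, a quinone oxidoreductase, read 1841 in P1 and was under the limit in each later group, a level at least 47.9-fold lower. HEPH, a copper-dependent iron oxidase, read 407 in P1, 488 in P2 and 513 in P4 and was under the limit in P3, at least 10.6-fold lower than in P1. Both rest on a single informative probe. HMOX2, the constitutive heme oxygenase, was 2.04-fold lower in P3 than in P1, with 47.7 in P3 and 97.4 in P1. SLC11A2, an iron transporter, and TP53I3, a p53-induced quinone oxidoreductase, spanned 1.58-fold and 1.81-fold.

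Among the enzymes that supply NADPH, which thioredoxin reductase consumes, none of 13 detected genes spanned 2-fold. With 9.77% of all detected genes past that span, the counts of 0 in this list and in both that follow are near the background. NADK2, ME1, MTHFD2 and NADK had the widest spans, of 1.51-fold, 1.46-fold, 1.43-fold and 1.40-fold. Superoxide and peroxide enzymes also had none of 11 past 2-fold, led by the oxidase NOX4, which read 80.2 (P1), 74.8 (P2), 54.0 (P3) and 42.6 (P4). UCP2, the copper chaperone CCS and CYBA followed, with 1.75-fold, 1.62-fold and 1.54-fold. Of 7 detected thioredoxin clients and partners of TXNIP none reached 2-fold. DDIT4, which forms a complex with TXNIP, had the widest span at 1.61-fold and was highest in P3. RRM2 and MSRA spanned 1.58-fold and 1.47-fold, and MAP3K5, the kinase ASK1 that thioredoxin restrains, was over the limit in P1 alone.

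Taken list by list, the median span over the 4 arrays was 1.47-fold for the TXNIP regulators and for the quinone reductases, 1.42-fold for iron and heme handling and 1.34-fold for the NRF2 targets. It was 1.31-fold for the thioredoxin list, 1.30-fold for the superoxide enzymes and for the thioredoxin clients, and 1.27-fold for the glutathione list. The lowest medians were those of NADPH supply (1.24-fold), the NRF2 regulators (1.21-fold), the peroxiredoxins (1.20-fold) and the alpha-arrestins (1.16-fold), beside 1.34-fold over all detected genes. The lists share some genes, and these values describe 4 arrays only.

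The genes beside TXNIP had smaller measured differences, and so had most detected genes. TXNIP lies on chromosome 1, and the 6 detected genes before it and the 6 after it in the RefSeq order of GRCh38.p14 had a median log2 difference of 0.00 in P3 against P1, with values from -0.81 to 0.80. In P3 against P2 the median was -0.04, with values from -0.33 to 0.80. No difference measured on both arrays reached 2-fold in these 12 neighbours in any of the 6 comparisons. Between 0.764% and 2.34% of all detected genes passed 2-fold in a given direction of a comparison. A count of 0 in 12 is thus near the background. The adjacent gene POLR3GL, a subunit of RNA polymerase III, read 560 (P1), 402 (P2), 597 (P3) and 438 (P4), a span of 1.48-fold, and so was lowest in P2 and highest in P3, as TXNIP was. In P4, however, POLR3GL was below P1, with a log2 difference of -0.36, where TXNIP was above it. NUDT17 read 116 (P1), 83.2 (P2), 66.1 (P3) and 86.0 (P4), a span of 1.76-fold. It was thus lowest in P3, where TXNIP was highest. LIX1L read 23.6 (P1), 24.0 (P2), 66.8 (P3) and 50.9 (P4) and, like TXNIP, was low in P1 and P2 with its peak in P3. It was at least 1.74-fold higher in P3 than in P1 or P2, a bound that does not show whether it reached 2-fold. ANKRD34A was under the limit in P4 and at least 1.39-fold lower there than in P1, which is a bound too. The next genes on the other side, NBPF10 and NOTCH2NLA, belong to multicopy families, and their probes may read several copies.

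**Figure D4:**
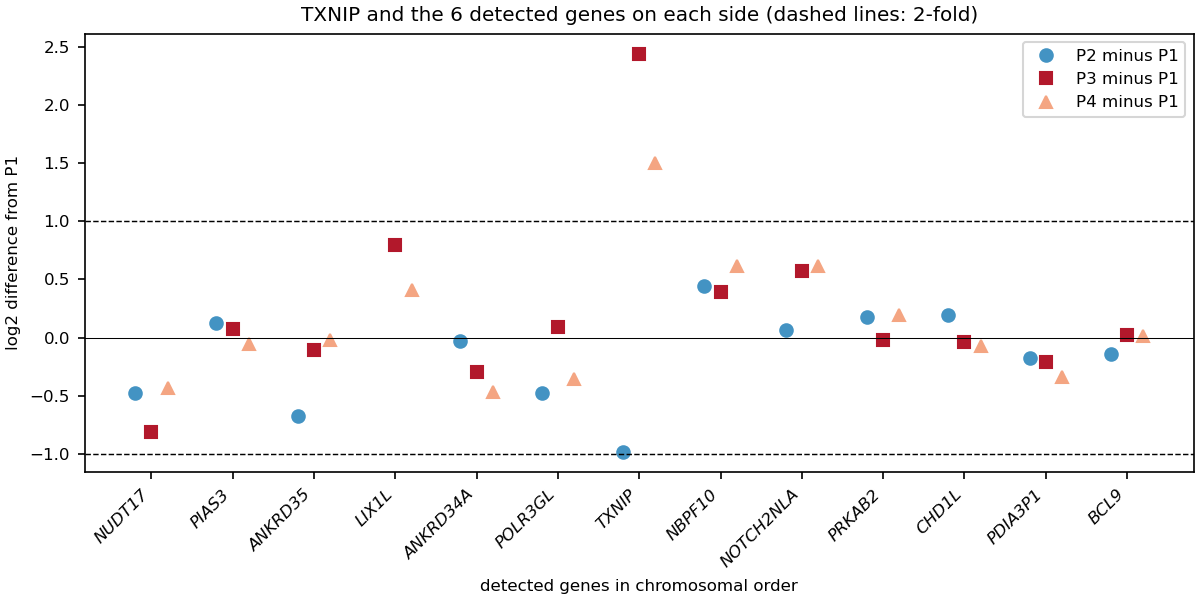
Log2 difference from P1 (vertical axis) of TXNIP and the 6 detected genes on each side in chromosomal order, for P2 (circles), P3 (squares) and P4 (triangles). TXNIP stands at 2.44 in P3 and 1.50 in P4, and every neighbour lies between the 2-fold lines, with LIX1L and ANKRD34A at their bounds.

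Across the genome, the profile nearest to TXNIP over the 4 arrays was that of H2AC6, a histone H2A gene, by the distance between log2 profiles centred on their means. H2AC6 read 80.3 (P1), 42.7 (P2), 262 (P3) and 149 (P4), at a distance of 0.72 log2 units. CNTFR, the receptor for ciliary neurotrophic factor, followed at 0.86 with 84.4 (P1), 64.0 (P2), 310 (P3) and 190 (P4). CLC, CCDC184 and ATP8B3 came next at 1.06, 1.12 and 1.12. Like TXNIP these genes were low in P1 and P2 and high in P3 and P4, although CLC was under the limit in P2 and ATP8B3 in P1, and ATP8B3 was lowest in P1. The redox members lay at distances from 2.50 for ARRDC4 to 2.92 for GCLM. The profiles were centred but not scaled, so a gene with a small span lies far from TXNIP whatever its course. ARRDC4 was also held at the limit in P1 and P2. A likeness over 4 points among 12168 genes is a description only.

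**Figure D5:**
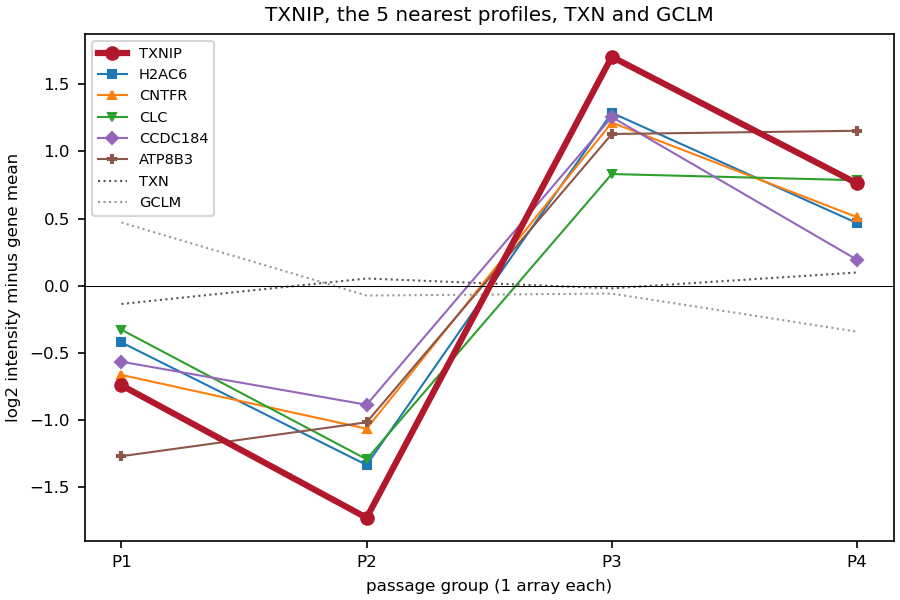
Log2 intensity minus the mean of each gene (vertical axis) over P1 to P4 for TXNIP (thick line), its 5 nearest profiles (thin lines) and 2 redox members, TXN and GCLM (dotted). TXNIP and its nearest profiles are high in P3 and P4, while TXN stays near 0 and GCLM is highest in P1.

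The arrays had between 11322 and 11426 detected genes, with medians from 17.4 to 17.5 intensity units and 25.2% to 25.4% of probes below 0 after background subtraction. Pearson correlations of log2 levels between arrays over the 12168 detected genes ran from 0.978 to 0.985 and were lowest for P1 with P2 and P3. The stem cell markers POU5F1, NANOG, SOX2, LIN28A and DNMT3B were detected on all 4 arrays, with POU5F1 between 4110 and 5467. Of 6 fibroblast markers 3, COL1A1, COL1A2 and THY1, were detected on each array, while COL3A1, DCN and LUM were under the limit throughout. Their summed intensity was 5273 (P1), 5955 (P2), 7258 (P3) and 8482 (P4). Most of it came from THY1 alone, at 3664 (P1), 4058 (P2), 5030 (P3) and 5796 (P4), so the sum does not measure a share of fibroblasts. Endoderm markers summed to between 61.6 and 240, with SOX17 and GATA4 below 0 on every array. AFP was over the limit on all 4, at 61.0 (P1), 212 (P2), 112 (P3) and 86.1 (P4). FOXA2 was over the limit in P3 alone, the array with the highest TXNIP, at 92.6, at least 2.41-fold higher there than on each other array. Mesoderm markers summed to between 108 and 207, with KDR alone detected. The neural markers summed to 1273 (P1), 1482 (P2), 837 (P3) and 905 (P4). Nearly all of this came from OTX2, the only neural marker detected. The fibroblast sum was highest in P4, and FOXA2, like TXNIP, was highest in P3. The part of any of these markers in the TXNIP values was not tested.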

How the data were processed

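Total RNA of 4 passage groups of H9 cells was labelled with biotin and hybridised to Illumina bead arrays, 1 per group, per the labels' protocols. The deposited data were linear intensity values per probe, background-subtracted and brought to nearly equal quantiles before deposit, as the values show; the sources used here do not name the software.

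The 4 arrays were quantile normalized, floored at the 60th percentile of all values (38.4), which served as the detection limit, and log2 transformed. Subtraction makes values near the limit noisy. The probe with the highest mean stood for its gene, and a fold against an array under the limit is a lower bound. Probes with 1 symbol numbered 30113, of which 30074 matched RefSeq by Entrez identifier; 8 had several symbols and 17202 were unnamed. All 6 pairs of arrays were compared, and a gene was called at a 2-fold difference if detected on at least 1 array of the pair. The 12 lists of redox genes were described by their counts past 2-fold and their medians; 160 of the 170 genes listed, members included, had a probe. From each list up to 4 detected genes outside the members, with the widest range over the arrays, were named, besides the members, the 5 profiles nearest to TXNIP and 5 stem cell markers. The members and lists were chosen with earlier results of these data known. The neighbours of TXNIP and the promoter motifs were added later, and no rule set beforehand which neighbours were described by name. SLC2A1, KEAP1, GCLC, CAT and the genes named as under the limit were named with their values in view. The script was tested on simulated data. Alternatives were no further normalization, median scaling, limits at the 50th and 75th percentiles, an offset of 50 and the mean of a gene's detected probes. Python 3.11.15, numpy 2.4.6 and pandas 2.3.3 were used.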

Additional observations from a re-analysis of the deposited data

How the results depend on the processing

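No paired analysis was possible because each group had 1 array, and for the same reason no array could be left out. A value was taken as moved when it differed by over 1.5-fold from the reported one. TXNIP was at least 2-fold higher in the same 4 comparisons under all 6 alternatives. With the limit at the 75th percentile P2 fell under it, and the TXNIP log2 difference became -0.22 in P2 against P1, 2.67 in P3 against P2 and 1.73 in P4 against P2, each a bound. The 33 other recomputed TXNIP differences and all 36 counts of members did not move. None of the 421 list medians moved either, but most were small beside the 1.5-fold tolerance. A median could thus change sign without being counted as moved, and nothing is read from this. Of 277 differences of other members 4 moved, all of ARRDC4, with the limit at the 50th percentile, to between 0.63 and 0.94. The numbers of all genes past 2-fold, in the order P2, P3 and P4 against P1, P3 and P4 against P2, and P4 against P3, were 516, 420, 361, 370, 368 and 248. They were 902, 795, 686, 666, 634 and 477 with the limit at the 50th percentile, where more dim genes count. They were 171, 150, 116, 135, 116 and 77 at the 75th percentile, and 218, 193, 158, 206, 194 and 145 with the offset of 50. Low signal limits ARRDC3, ARRDC4 and the P3 value of TXNRD2.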

Other observations

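CAT, which encodes the peroxide-degrading enzyme catalase, was over the detection limit in P1 alone on both of its probes. These read 70.9 and 49.8 in P1, and the later groups were at least 1.85-fold lower on the first and at least 1.30-fold lower on the second. CRYZ had the same course. CCS, the copper chaperone of superoxide dismutase, was lowest in P1 on both probes, at 196 and 165, and highest in P2, at 318 and 325. The cystine transporter gene SLC7A11, a known NRF2 target, read between 6.22 and 20.8 and was under the limit on every array. Its probe gave no measurable signal, which does not show that the gene is silent.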
